A study of Homo sapiens with 15 samples.

Results

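This report describes 9 genes of the MHC class I antigen presentation pathway in SNB19 cells, a human glioblastoma cell line. They were chosen by symbol as genes of the pathway: the class I heavy chain genes HLA-B, HLA-C, HLA-E and HLA-F, the light chain gene B2M, the peptide loading genes TAP1 and TAPBP, and the immunoproteasome genes PSMB8 and PSMB9. All 9 were among the 18485 genes of the count table, and all 9 passed the filter on low counts, with 6767 genes tested in all. The cells had received a lentiviral vector that was empty (EV) or carried full-length ZBTB18 (FL), its mutant (FL-mut), a short form (SF-Nte) or the mutant of the short form (SF-mut), with 3 libraries per group. ZBTB18 is a zinc finger transcription repressor. The labels do not spell out "Nte", the site of the mutations or the time after transduction, and nothing says that the 3 libraries of a group came from separate cultures, so each p-value covers only the spread of these libraries, which may be technical. All groups share a single cell line, a medium with serum and transduction with the vector, and no untransduced cells were analysed here.

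MHC class I molecules show peptides from inside the cell to T cells and natural killer cells. The proteasome cuts proteins into peptides, the TAP transporter carries these into the endoplasmic reticulum, tapasin (TAPBP) holds an empty class I molecule beside the transporter, and the heavy chain leaves for the cell surface once it has bound B2M and a peptide. Interferon raises most of these genes together, acting through IRF and STAT factors and the coactivator NLRC5, and low class I levels are a known feature of many tumours.

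Class I promoters are known for elements bound by interferon-induced and NF-kappaB factors, and 5 promoters are shown because they let the heavy chains be compared with B2M and TAP1. RefSeq promoters of GRCh38.p14, each reaching from 250 bases before to 50 bases after the annotated start, were found for 8 of the 9 genes; HLA-E had none in the table. Each stretch reads 5′ to 3′ on the gene's own strand. Capitals mark matches on either strand to 3 motifs, which are the interferon response element core TTTCNNTT, the CCAAT box and the NF-kappaB consensus.

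HLA-B: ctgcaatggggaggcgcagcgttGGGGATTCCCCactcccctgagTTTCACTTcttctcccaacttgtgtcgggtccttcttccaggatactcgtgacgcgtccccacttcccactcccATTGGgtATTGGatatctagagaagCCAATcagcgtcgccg

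HLA-C: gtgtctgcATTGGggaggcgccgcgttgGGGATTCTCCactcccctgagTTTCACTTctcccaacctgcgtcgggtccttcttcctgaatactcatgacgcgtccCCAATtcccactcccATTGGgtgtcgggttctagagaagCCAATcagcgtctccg

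HLA-F: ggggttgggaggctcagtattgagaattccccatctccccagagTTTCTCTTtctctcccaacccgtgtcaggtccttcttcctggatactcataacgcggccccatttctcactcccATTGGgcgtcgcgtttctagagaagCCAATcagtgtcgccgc

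TAP1: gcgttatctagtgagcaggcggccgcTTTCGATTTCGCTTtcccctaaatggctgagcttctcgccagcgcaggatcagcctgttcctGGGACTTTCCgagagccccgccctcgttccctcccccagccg

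B2M: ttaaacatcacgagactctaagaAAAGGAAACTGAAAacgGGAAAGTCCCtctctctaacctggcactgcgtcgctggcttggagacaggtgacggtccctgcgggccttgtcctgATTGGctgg

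These stretches are chr6:31357220-31357379 on the minus strand for HLA-B, chr6:31272133-31272292 on the minus strand for HLA-C, chr6:29723234-29723393 on the plus strand for HLA-F, chr6:32853735-32853864 on the minus strand for TAP1 and chr15:44711352-44711476 on the plus strand for B2M. The first interferon element base lies at -155 in HLA-B, -151 in HLA-C and -156 in HLA-F, counted from the start. HLA-B and HLA-C also hold an NF-kappaB match just before it, at -177 and -172, while the HLA-F stretch holds none. TAP1 has a pair of overlapping interferon matches at -134 and -128, and B2M a pair on the opposite strand at -142 and -136. TTTCNNTT was found in the promoters of 7 of the 8 genes (all but PSMB9), and in 7 of their 10 promoter windows, against 22.8% of the 35116 promoters in the table. CCAAT was found in 6 of the 10 windows, against 34.6%, and the NF-kappaB consensus in 5 of the 10, against 11.3%. ACATCTG, the core of the element ZBTB18 is known to bind, was in 0 of the 10, against 3.40% of all promoters, which says only that these letters are not in this window. The motifs were matched by letters alone, and TTTCNNTT matches can overlap each other.

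Total counts per library were 1274474 to 1930245 in EV, 803316 to 1393060 in FL, 865997 to 1313573 in FL-mut, and for the short forms 432611 to 603155 (SF-Nte) and 315693 to 597414 (SF-mut), so the short-form groups were read at lower depth. The SF-mut libraries carry barcode names with a suffix that no other group has; whether they were handled apart is not said, and such handling cannot be told apart from the group in any SF-mut comparison or in the interaction. ZBTB18, which the constructs carry, was at 4.37 to 7.12 CPM (counts scaled to a common library size) in EV and higher in the other groups, as their labels say. It was at 623 to 3067 CPM in FL, 907 to 6858 in FL-mut, 199 to 470 in SF-Nte and 853 to 3631 in SF-mut. Every SF-Nte library lay below every library of the other construct groups. The level of the construct therefore cannot be told apart from its form or mutation in SF-Nte against FL, SF-mut against SF-Nte or the interaction. The mesenchymal glioma marker VIM was present in every library (143 to 844 CPM), while GFAP was at 0 to 7.53 CPM and OLIG2 and AQP4 had no row. Immune markers, which matter here because leukocytes carry much class I, summed to at most 34.7 CPM in any library over the 7 of 14 with a row, and PTPRC, the pan-leukocyte marker, was at 0 to 11.6 CPM. Endothelial markers summed to at most 21.4 CPM and epithelial markers to at most 151 CPM, the latter in SF-mut. In bulk RNA, fewer expressing cells and less RNA per cell cannot be told apart.

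The counts of these genes carry a feature that bears on every value below. Among libraries with a count above 0, TAP1 and PSMB8 had a count divisible by 6 in 80.0% (12 of 15 each), HLA-E in 73.3%, PSMB9 in 69.2%, TAPBP in 60%, HLA-C in 46.7%, HLA-F in 30% and HLA-B in 20.0%. B2M, which lies on chromosome 15 and not in the MHC region, stood at 33.3%. Over the whole table, 15.4% of 165353 counts above 0 were divisible by 6. The 87 tested genes at 28 to 34 Mb of chromosome 6 had a median of 71.4%, and 64.4% of them were over 50%, against a median of 20.0% and 4.61% over 50% for 6566 tested genes elsewhere. Where counts step by 6, a gene's level may rest on fewer independent reads than its count shows, and its level may not be comparable with that of B2M. What made these multiples was not tested.

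**Figure D1:**
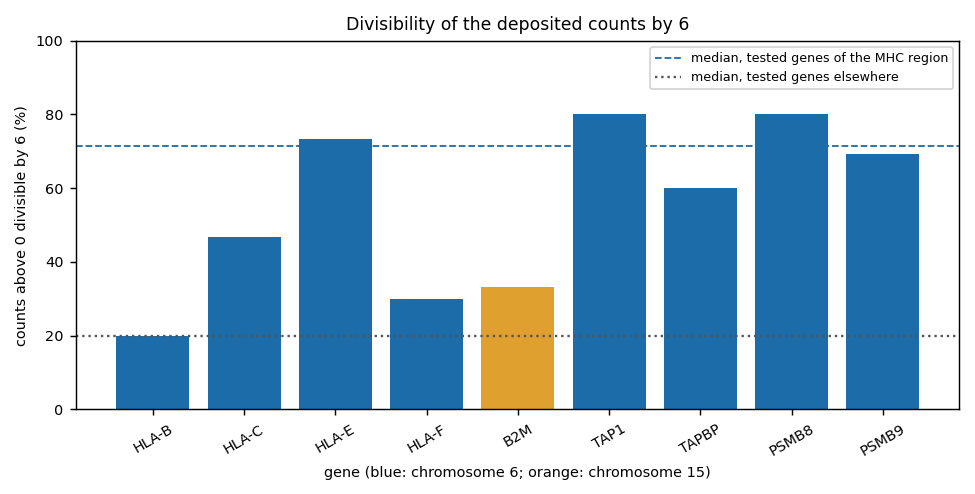
Share of counts above 0 that are divisible by 6, in percent, for each gene over 15 libraries (bars; blue for chromosome 6, orange for B2M on chromosome 15). The dashed line is the median of 87 tested genes of the MHC region (71.4%) and the dotted line that of 6566 tested genes elsewhere (20.0%); TAP1 and PSMB8 stand at 80.0% and HLA-B at 20.0%.

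The heavy chain genes also resemble each other enough to share reads. In GENCODE 29 coding sequence, HLA-B and HLA-C were 92.5% identical and HLA-E and HLA-F 84.1%, the extremes among pairs of HLA-B, HLA-C, HLA-E and HLA-F. Windows of 31 coding bases found in another of these genes made up 12.3% in HLA-C, 11.7% in HLA-B, 9.29% in HLA-E, 4.48% in HLA-F and 0% in the other 5 genes. The annotated span of HLA-B (chr6:31269491-31357188) covers that of HLA-C (chr6:31268749-31272130) in part, on the same strand. PSMB9 (chr6:32844136-32859585, plus strand) overlaps both TAP1 (chr6:32845209-32853978) and PSMB8 (chr6:32840717-32844703), which lie on the minus strand. HLA-F (chr6:29722775-29738528) overlaps the antisense gene HLA-F-AS1. The remaining genes are HLA-E at chr6:30489467-30494205, TAPBP at chr6:33299694-33314387 and B2M at chr15:44711487-44718877. The sources used here do not say how reads were assigned among such genes or whether strand was used, so the split of reads between HLA-B and HLA-C is uncertain.

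B2M stood far above every other gene of the pathway. Per kilobase of the principal transcript, its EV mean was 17760 CPM per kb (range 7398 to 29492), followed by PSMB8 at 260 (168 to 354), HLA-C at 54.1 (39.6 to 81.4), HLA-B at 44.9 (20.0 to 60.4), TAPBP at 33.7 (25.3 to 40.3), TAP1 at 12.7 (8.86 to 19.9), HLA-E at 10.3 (6.72 to 14), PSMB9 at 9.80 (0 to 18.2) and HLA-F at 7.62 (3.27 to 9.80). In that order the EV ranges separated B2M from PSMB8, PSMB8 from HLA-C, and TAPBP from TAP1. All other neighbours overlapped and do not differ beyond their spread. Long reads are usually 1 per cDNA molecule, so this division by length is a convention here; with the steps of 6 above, the order is a description of the deposited counts.

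**Figure D2:**
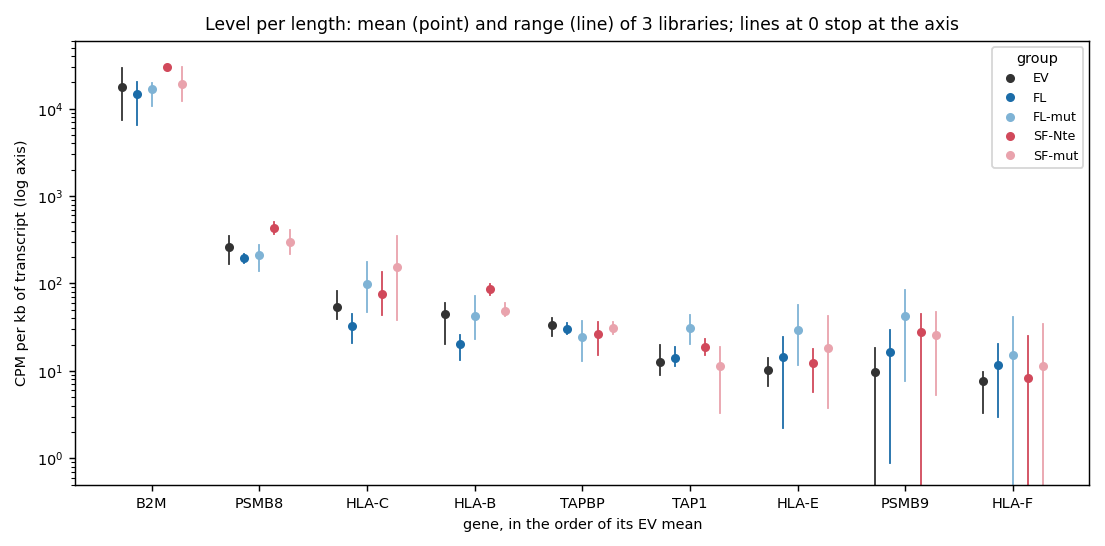
Level per kilobase of the principal transcript (CPM per kb, log axis) for each gene in its EV order; points are means of 3 libraries, lines run from the lowest to the highest, and lines that reach 0 stop at the axis. B2M lies above all others (EV mean 17760), PSMB8 is next (EV mean 260), and the ranges of PSMB9 and HLA-F reach 0.

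HLA-B was lowest with FL and highest with SF-Nte. Its level was 31, 83.8 and 93.5 CPM in EV replicates 1 to 3, and 20.8, 34.8 and 39.7 CPM in FL. In FL-mut it was 49.5, 110 and 36.1 CPM, in SF-Nte 137, 115 and 152 CPM, and in SF-mut 68.6, 92.5 and 65.6 CPM. Every SF-Nte library lay above every library of the other groups, and the FL libraries overlapped only with EV replicate 1 and FL-mut replicate 3.

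HLA-C, the closest relative of HLA-B here and a ligand of killer cell receptors, varied widely within groups. It was at 61.5, 64.1 and 126 CPM in EV, at 49.9, 32.3 and 69.7 CPM in FL, and at 72.7, 270 and 119 CPM in FL-mut. In SF-Nte it was at 208, 67.7 and 74.7 CPM and in SF-mut at 58.8, 539 and 117 CPM. FL-mut lay above FL in all libraries, and the highest value, in SF-mut replicate 2, was a single library.

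HLA-E, which presents leader peptides of other class I chains to natural killer cells, had group means from 26.9 ± 9.51 CPM in EV to 76.1 ± 64.1 CPM in FL-mut (SD, n = 3 each). The group ranges overlapped throughout; its highest libraries were FL-mut replicate 2 (149 CPM) and SF-mut replicate 2 (111 CPM), and its lowest was FL replicate 3 (5.81 CPM). HLA-F, a class I chain found partly as an open form without peptide, was read in 10 of 15 libraries. It was at 16, 16 and 5.34 CPM in EV and at 4.85, 33.6 and 19.4 CPM in FL. It had no count in FL-mut replicate 1, in SF-Nte replicates 2 and 3 or in SF-mut replicates 1 and 3, and stood at 67.9 CPM in FL-mut replicate 2, 55.5 CPM in SF-mut replicate 2 and 40.4 CPM in SF-Nte replicate 1. Values of 0 lay beside values above 40 CPM in 3 groups, so no order of the groups can be read for HLA-F.

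B2M, the light chain shared by all class I molecules, took between 6115 and 29939 CPM. It was at 6976, 15457 and 27811 CPM in EV, at 6115, 16203 and 18913 CPM in FL, and at 10163, 18103 and 18690 CPM in FL-mut. It was at 29262, 29939 and 26859 CPM in SF-Nte and at 11424, 14548 and 28627 CPM in SF-mut. The 3 SF-Nte libraries lay close together near the top of the whole range, all above FL and FL-mut, while EV and SF-mut each held a library at a similar level. In the other 4 groups replicate 1 was the lowest library and replicate 3 the highest, a difference within EV of 6976 against 27811 CPM. A measure pooled over tested genes with enough counts, B2M among them, was also lowest in SF-Nte. This spread relative to counting noise (chi-square per degree of freedom) was 6.51 in SF-Nte. It was 49.5 in EV, 32.3 in FL, 54.3 in FL-mut and 44.8 in SF-mut. The measure weighs abundant genes most and rises with depth, so the groups are not directly comparable. SF-mut was the group nearest to SF-Nte in depth. The cause of the lower value in SF-Nte was not tested. edgeR used 1 dispersion per gene across groups, which does not allow for a spread that differs between groups.

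TAP1, a subunit of the peptide transporter, was highest in FL-mut. It was at 27.5, 26.2 and 58.8 CPM in EV, at 33.3, 37.3 and 55.2 CPM in FL, and at 60.6, 129 and 84.1 CPM in FL-mut. In SF-Nte it was at 69.3, 50.8 and 44.8 CPM and in SF-mut at 9.80, 55.5 and 36.9 CPM. FL-mut lay above EV, FL and SF-mut in every library. The counts behind this were small and stepped by 6: they were 60, 114 and 114 in FL-mut and 6, 18 and 18 in SF-mut. TAPBP, which encodes tapasin, had group means from 92.1 ± 45.5 CPM in FL-mut to 127 ± 28.9 CPM in EV (SD, n = 3 each), and all group ranges overlapped.

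PSMB8, a catalytic subunit that replaces its constitutive counterpart in the immunoproteasome, had its group means in the same order as those of HLA-B, from FL through FL-mut, EV and SF-mut to SF-Nte. It was at 189, 398 and 288 CPM in EV, at 191, 231 and 244 CPM in FL, and at 158, 314 and 239 CPM in FL-mut. It was at 566, 454 and 418 CPM in SF-Nte and at 243, 462 and 308 CPM in SF-mut. SF-Nte lay above EV, FL and FL-mut in every library and overlapped with SF-mut. PSMB9, its partner subunit, was scarce, at 0, 8.74 and 14.2 CPM in EV, 0.694, 14.9 and 23.2 CPM in FL, and 6.06, 26.0 and 66.4 CPM in FL-mut. It was at 34.7, 0 and 29.9 CPM in SF-Nte and at 19.6, 37.0 and 4.10 CPM in SF-mut, and all group ranges overlapped.

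**Figure D3:**
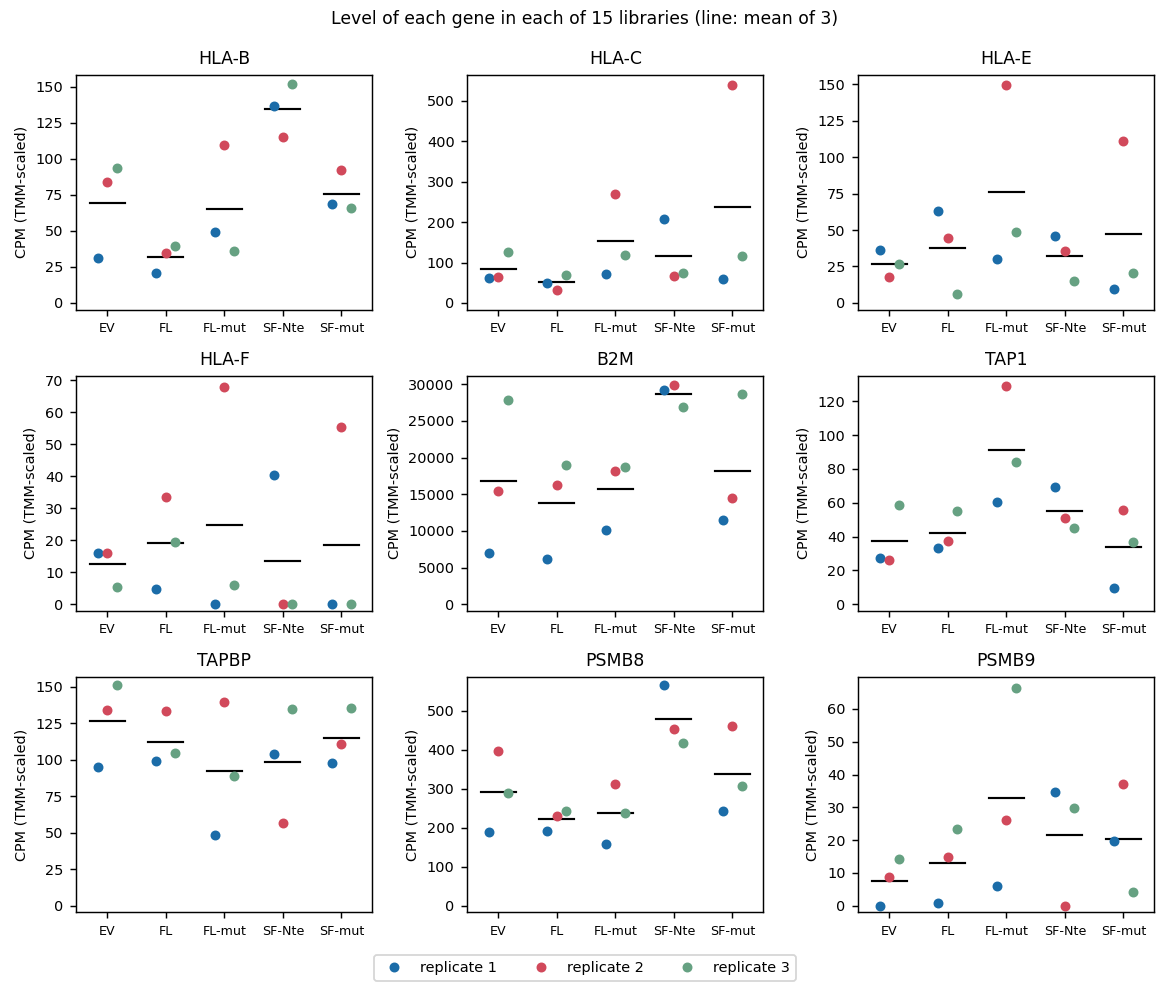
Level of each gene (CPM, linear axis, its own scale per panel) in each of 15 libraries; points are libraries coloured by replicate number and lines are group means of 3. HLA-B and PSMB8 are highest in SF-Nte, TAP1 is highest in FL-mut, and replicate 2 of FL-mut and SF-mut stands high for HLA-C (270 and 539 CPM), HLA-E and HLA-F.

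The short form against the full-length protein gave 3 members at an unadjusted p under 0.05, more than any other comparison, and edgeR called none after adjustment. In SF-Nte against FL, HLA-B was higher by a log2 fold change of 2.08 ± 0.50 (SE), with means of 134 ± 18.7 and 31.8 ± 9.80 CPM (SD, n = 3 each), and edgeR's quasi-likelihood test with Benjamini-Hochberg adjustment over 6767 genes gave an adjusted p of 0.0601. DESeq2 gave 0.00367 for the same gene, past the threshold of 0.05. PSMB8 differed by 1.11 ± 0.34 (edgeR adjusted p = 0.145) and B2M by 1.06 ± 0.47 (edgeR adjusted p = 0.347). edgeR thus called 0 of 9 members, against 1.06% of all genes tested; at an unadjusted p under 0.05 it counted these 3, against 13.2%, and DESeq2 called HLA-B alone, against 4.15%. The same 3 were those whose SF-Nte libraries all lay above FL, against 9.86% of all genes, and 0 of 9 lay below, against 14.6%. The median over the 9 was 0.74, with 6 above 0, against a median of -0.15 over all genes, 42.9% of which were above 0. The edgeR call on HLA-B was gained with upper-quartile scaling (adjusted p = 0.0460), with no filter (0.0209) and in a fit of only these groups (0.0153), and the adjusted p was 0.111 to 0.226 when 1 library was left out. VIM, the glioma marker, also rose in this comparison, by 1.75 (edgeR adjusted p = 0.0361), from 226 ± 74.6 to 765 ± 69.5 CPM (SD, n = 3 each), a call lost when any 1 of the 6 libraries was left out (0.0528 to 0.222). It was the 1 called of 7 glioma and astroglial markers tested: NES (2.40) and CD44 (0.57) had values above 0, PDGFRA had no count in FL and 12.9 ± 9.03 CPM in SF-Nte, and ALDH1L1 (-2.07), FABP7 (-0.24) and SOX2 (-0.01) lay below 0. The markers' part in the result was not tested.

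Full-length ZBTB18 against the empty vector gave no called member. HLA-B was lower by a log2 fold change of -1.13 ± 0.48 (edgeR unadjusted p = 0.0340, adjusted p = 0.554), and the 2 groups overlapped. Between same-numbered libraries, HLA-B and HLA-C were lower in FL in 3 of 3 pairs, against 18.7% of all genes, and PSMB9 was higher in 3 of 3, against 19.3%; with the replicate block HLA-B differed by -1.08 (adjusted p = 0.478). B2M differed by -0.29 ± 0.47 and the 9 members ranged from -1.13 to 0.77, with a median of -0.18 against -0.01 over all genes. edgeR called 0 of 9, against 0.310% of all genes, 1 of 9 at an unadjusted p under 0.05, against 7.64%, and DESeq2 called 0, against 2.63%.

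Mutant full-length ZBTB18 against the empty vector had TAP1 highest relative to its spread. It was higher by 1.29 ± 0.53 (edgeR unadjusted p = 0.0280, adjusted p = 0.415), with all FL-mut libraries above EV; this was 1 of 9 members with no overlap upward, against 8.36% of all genes. B2M differed by -0.10 ± 0.47. The median of the members was 0.87, the value of HLA-C, against 0.04 over all genes. Leaving out 1 library moved HLA-C to between 0.18 and 1.23. Above 0 were 5 of 9 members, against 51.8% of all genes. edgeR called 0 of 9, against 0.192%, and 1 of 9 at an unadjusted p under 0.05, against 10.5%, and DESeq2 called 0, against 2.37%.

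The short form against the empty vector had HLA-B and PSMB8 higher in every library, and neither passed the test. PSMB8 differed by 0.72 ± 0.33 (edgeR unadjusted p = 0.0482, adjusted p = 0.684) and HLA-B by 0.96 ± 0.48 (unadjusted p = 0.0625, adjusted p = 0.711). These were the 2 of 9 members whose SF-Nte libraries all lay above EV, against 6.0% of all genes. B2M differed by 0.78 ± 0.47 (adjusted p = 0.761), and its groups overlapped through EV replicate 3. edgeR called 0 of 9, against 0.0443%, 1 of 9 at an unadjusted p under 0.05, against 7.23%, and DESeq2 0, against 0.614%. The median was 0.56, with 8 of 9 above 0, against -0.13 over all genes, 42.8% of which were above 0.

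The mutant short form against the empty vector gave no member at an unadjusted p under 0.05. HLA-C had the largest difference in size, 1.49 ± 0.72 (edgeR unadjusted p = 0.0540, adjusted p = 0.923), and its 539 CPM in SF-mut replicate 2 stood beside 58.8 and 117 CPM. Without that library the difference was 0.042. B2M differed by 0.12 ± 0.47. edgeR called 0 of 9, against 0.0591% of all genes, and 0 at an unadjusted p under 0.05, against 5.36%, and DESeq2 0, against 0.324%.

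Between the mutant and unmutated full-length proteins, HLA-C differed by 1.60 ± 0.72 (edgeR unadjusted p = 0.0420, adjusted p = 0.396) and HLA-B by 1.03 ± 0.49 (unadjusted p = 0.0498, adjusted p = 0.411). TAP1 differed by 1.12 ± 0.53 (unadjusted p = 0.0514, adjusted p = 0.415). HLA-C and TAP1 had every FL-mut library above FL, 2 of 9 members against 8.97% of all genes. edgeR called 0 of 9, against 0.0887%, 2 of 9 at an unadjusted p under 0.05, against 12.1%, and DESeq2 0, against 2.65%. The members' median was 0.99, with 8 of 9 above 0, against 0.02 over all genes.

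Between the mutant and unmutated short forms the members had no common direction. Their median was -0.12, the value of PSMB9 (± 1.34 SE), against 0.05 over all genes. DESeq2 put PSMB9 at 0.0025, so the sign of this median is not settled. Above 0 were 4 of 9 members (HLA-C, HLA-E, HLA-F and TAPBP), against 52.5% of all genes. HLA-B was lower in SF-mut by -0.84 ± 0.49 (edgeR unadjusted p = 0.105, adjusted p = 0.672), with no overlap between the groups, as 1 of 9 members against 6.62% of all genes lower in this way. edgeR called 0 of 9, as it did over all genes (0%), and 0 at an unadjusted p under 0.05, against 8.33%, and DESeq2 0, against 0.0217%.

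TAP1 was the only member at an unadjusted p under 0.05 between the 2 mutants. In SF-mut against FL-mut it was lower by -1.46 ± 0.56 (edgeR unadjusted p = 0.0186, adjusted p = 0.392), with no overlap, as 1 of 9 members against 8.02% of all genes lower in this way. edgeR called 0 of 9, against 0.163%, 1 of 9 at an unadjusted p under 0.05, against 9.66%, and DESeq2 0, against 1.92%.

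Whether the mutation acts differently in the full-length and short forms was tested directly, and no member passed. The interaction, which is the mutant difference in the full-length protein minus that in the short form, was 1.87 ± 0.69 for HLA-B (edgeR unadjusted p = 0.0153, adjusted p = 0.984) and 1.85 ± 0.77 for TAP1 (unadjusted p = 0.0294, adjusted p = 0.997). edgeR called 0 of 9, against 0.0296% of all genes, 2 of 9 at an unadjusted p under 0.05, against 4.65%, and DESeq2 0, against 0.0379%. In the test for any difference among the 5 groups, HLA-B had an adjusted p of 0.194 and PSMB8 of 0.254 by edgeR. edgeR called 0 of 9 there, against 1.12%, these 2 at an unadjusted p under 0.05, against 16.3%, and DESeq2 called HLA-B (adjusted p = 0.0357), against 8.70%. Comparisons that use the same group share its libraries, so their values are not independent of each other.

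**Figure D4:**
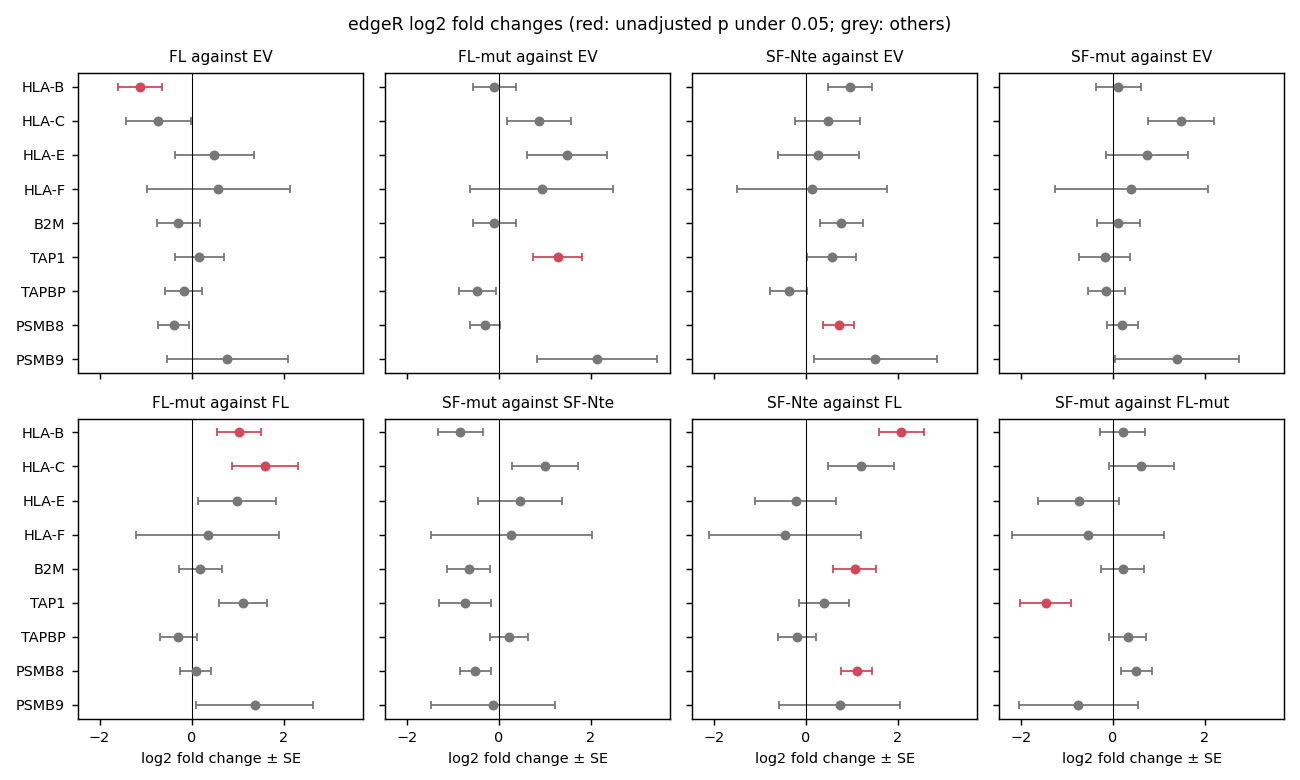
Log2 fold change of each gene (points) with its standard error (bars) in 8 comparisons by edgeR; red marks an unadjusted p under 0.05 and grey all others, and no gene passed the adjusted threshold. The point farthest from 0 at an unadjusted p under 0.05 is HLA-B in SF-Nte against FL (2.08), and the bars of HLA-F and PSMB9 are the widest.

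Replicate 2 of FL-mut and of SF-mut stood apart for the heavy chains, within a wider pattern. Over 1975 genes, the deviations of these 2 libraries from their group means correlated at r = 0.67, so the shift was not limited to this pathway. The replicate 1 libraries of the same groups gave r = 0.61 and the replicate 3 libraries r = 0.02. Deviations within a group cancel out, so these values are not independent and the replicate 1 value is not separate support. The sum of HLA-B, HLA-C, HLA-E and HLA-F, which does not depend on how reads were split among these 4, was 598 CPM in FL-mut replicate 2 and 798 CPM in SF-mut replicate 2, against 135 to 431 CPM in the other 13 libraries. B2M was at 18103 and 14548 CPM in the same libraries, so the counts of B2M per count of these heavy chains were 30.3 and 18.2, against 44.1 to 141 in the other 13. Of the 9 members, 6 had the highest value of each group in these 2 libraries (HLA-B, HLA-C, HLA-E, HLA-F, TAP1 and PSMB8), against 19.4% of all genes tested. The 2 libraries were singled out for their heavy chain levels, so this count is a description and no support for a shift of the pathway. The sum in the other groups was 193 ± 54.4 CPM in EV, 140 ± 5.55 CPM in FL and 297 ± 117 CPM in SF-Nte (SD, n = 3 each). Every SF-Nte library lay above FL, while EV reached down to 145 CPM and FL up to 146 CPM. SF-mut replicate 2 was the library of lowest depth (315693 counts). The depth's part in the result was not tested.

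**Figure D5:**
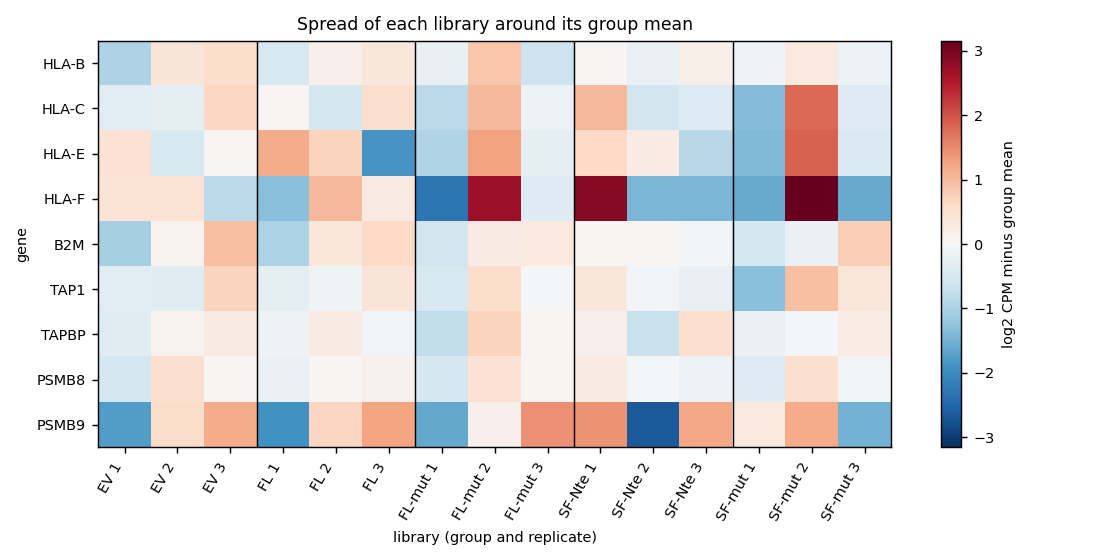
Log2 CPM of each gene minus its group mean (colour scale; red above, blue below) in each of 15 libraries, with black lines between groups. FL-mut replicate 2 and SF-mut replicate 2 are red for HLA-C, HLA-E and HLA-F, while B2M there lies near its group mean (18103 and 14548 CPM).

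Across the 15 libraries the 9 genes did not rise and fall as a block. Over their 36 pairs, Pearson's r of log2 CPM had a median of 0.34 and ran from -0.15 to 0.83. HLA-B went most closely with PSMB8 (r = 0.83) and B2M (r = 0.72), and B2M with PSMB8 (r = 0.70). These correlations describe 15 libraries that share groups, depth and replicate numbers. The genes outside the pathway with the most similar profiles were MGST3 (r = 0.87) and ZNF280B (0.87) for HLA-B, PYCR1 (0.88) and PPA2 (0.88) for HLA-C, PPP1CA (0.90) and HSPA9 (0.86) for HLA-E, and MAP2K2 (0.86) and PAPOLA (0.86) for HLA-F. For B2M LTA4H is given (0.90); they were for TAP1 WHAMMP2 (0.85) and SLC50A1 (0.80), for TAPBP HIBADH (0.89) and CD99L2 (0.79), for PSMB8 POLR2G (0.85) and IMMP2L (0.85), and for PSMB9 PCCA (0.79) and ATAD3C (0.76), each over the same 15 libraries.

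The wider pathway was read through 12 lists with 165 genes outside the 9, of which 150 were in the table and 85 were tested. edgeR called 1 of these 85 in SF-Nte against FL, 1 in SF-mut against FL-mut and 1 in the test of any difference, MICA each time, against 1.06%, 0.163% and 1.12% of all genes, and 0 in the other 7 tests. MICA, a class I-like stress ligand of the NKG2D receptor that binds neither B2M nor peptide, was higher with the full-length forms than with the short forms. It was at 234, 187 and 221 CPM in EV, 504, 984 and 881 CPM in FL, 627, 568 and 1600 CPM in FL-mut, then 162, 102 and 167 CPM in SF-Nte and finally 206, 55.5 and 166 CPM in SF-mut. Both full-length groups lay above the other 3 groups in every library. Against EV, FL-mut differed by a log2 fold change of 2.12 (edgeR adjusted p = 0.0816). SF-Nte differed from EV by -0.58 (edgeR adjusted p = 0.846) and SF-mut by -0.57 (0.997). The log2 fold change was -2.46 in SF-Nte against FL (edgeR adjusted p = 0.0196) and -2.69 in SF-mut against FL-mut (adjusted p = 0.0282), while in FL against EV it was 1.88 (edgeR adjusted p = 0.126, DESeq2 adjusted p = 0.00476). Without SF-Nte replicate 2 the first of these had an adjusted p of 0.114, and without SF-mut replicate 3 the second had 0.160. The first call was lost in 5 of 6 such fits (all but that without FL replicate 1) and the second in 4 of 6 (all but those without FL-mut replicate 2 or SF-mut replicate 1).

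Of the 6 genes of the immunoproteasome and its activator, 0 were called in any comparison. PSME1, a subunit of the activator and named here after its values were seen, was at 354 ± 13.2 CPM in FL and 730 ± 190 CPM in SF-Nte (adjusted p = 0.101), and PSME2, its partner, at 732 ± 243 and 1189 ± 34.8 CPM (adjusted p = 0.357; SD, n = 3 each, edgeR). With PSMB8 these were the 3 of 6 at an unadjusted p under 0.05 in that comparison, against 13.2% of all genes, and the list's median was 0.88 against -0.15 over all genes. POMP, the assembly factor, was at 1405 ± 259 CPM in FL and 1121 ± 45.4 CPM in SF-Nte, and PSMB10 at 17.9 ± 8.32 and 36.5 ± 14.9 CPM. The 3 constitutive catalytic subunits had a median of -0.11 with 0 called, and PSMB6 was at 462 ± 62.6 CPM in FL and 396 ± 29.1 CPM in SF-Nte and PSMB5 at 481 ± 47.1 and 506 ± 62.2 CPM.

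Peptide loading had 0 of 11 tested genes called in any comparison. The chaperone CANX was at 162 ± 31.2 CPM in EV, 285 ± 78.2 CPM in FL and 179 ± 11.0 CPM in SF-Nte, and CALR at 155 ± 58.9, 212 ± 90.6 and 175 ± 29.4 CPM (SD, n = 3 each). TAP2, the partner of TAP1 in the transporter, was at 26.5 to 30.6 CPM in EV and at 0 to 22.1 CPM elsewhere, with no count in 5 libraries. Its counts were too few to tell whether it moved with TAP1.

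Among regulators and interferon targets, edgeR called no gene in any comparison (0 of 8, 0 of 7 and 0 of 17 tested genes of the class I regulators, interferon signalling and interferon-stimulated lists). NLRC5, named for its known role after its values were seen, was at 12.7 ± 3.38 CPM in EV, 4.56 ± 4.75 in FL and 14.2 ± 7.36 in FL-mut. With the short forms it was at 3.38 ± 2.10 CPM in SF-Nte and 9.34 ± 11.7 in SF-mut (SD, n = 3 each). Its edgeR adjusted p was 0.796 in FL against EV and 0.730 in SF-Nte against EV. These levels were low, down to 0.968 CPM in FL and 1.88 CPM in SF-Nte. IFITM2, an antiviral membrane protein, had group means of 70.0 ± 88.9 CPM in EV, 10.7 ± 11.7 in FL and 7.0 ± 8.08 in FL-mut, and of 205 ± 28.9 and 40.0 ± 26.3 CPM with the unmutated and mutant short form (SD, n = 3 each). Its log2 fold change in SF-Nte against FL was 4.25 (edgeR adjusted p = 0.108; DESeq2 adjusted p = 0.00607). LGALS3BP, the most abundant gene of that list, was at 43.8 ± 17.5 CPM in FL and 71.9 ± 4.17 CPM in SF-Nte. The list's median was 0.42 in that comparison, against -0.15 over all genes.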

How the data were processed

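PolyA RNA of 15 libraries in 5 groups was read as PCR-amplified cDNA on Oxford Nanopore, per the labels' protocols. The values deposited by the authors are raw read counts for each gene symbol; the submitters' processing notes name GRCh38. The sources used here do not name the aligner, counting tool, strand setting or annotation, nor the treatment of reads that match several genes. Reads carry no molecular identifiers.

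The 9 genes and all lists were chosen with earlier results of these data known. Genes were filtered with filterByExpr (minimum count 10, minimum total 15) and scaled by TMM. edgeR 4.0.16 (R 4.3.3) fitted all 15 libraries by group with robust quasi-likelihood, with p-values adjusted by Benjamini-Hochberg over 6767 genes at 0.05. CPM are computed after that scaling. DESeq2 1.42.0, upper-quartile scaling, no filter, fits of only the groups compared, a replicate block and leaving out 1 library at a time were the alternatives. Division of the counts of the members on chromosome 6 by 6 was added after seeing the data. The code was tested on simulated counts. Each gene of the 9 is given in every library, and of each other list up to 4 called genes or else the 2 of highest mean CPM; some items are not reported here. Deviations of same-numbered EV and FL libraries from their group means correlated at 0.157 to 0.520. On the data alone, directions within same-numbered pairs and a value with the replicate block are therefore also given for FL against EV. The main test of FL against EV was unpaired, and the replicate block was fitted over all 5 groups. No other pair of groups compared met the limit of 0.1 throughout. Lengths and positions came from GENCODE 29, promoters from RefSeq, GRCh38.p14.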

Additional observations from a re-analysis of the deposited data

How the results depend on the processing

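For SF-Nte against FL, where edgeR called 0 members, the number called became 1 (HLA-B) with upper-quartile scaling, with the replicate block and with DESeq2, and 2 with no filter (HLA-B and B2M) or only the groups compared (HLA-B and PSMB8). With no filter, FL-mut against FL had 1 member called (HLA-C) and the test of any difference 2 (HLA-C and B2M), while DESeq2 called 1 (HLA-B) in the latter; the cause was not tested. FL and SF-Nte libraries share only a number (correlations of deviations -0.03 to 0.07). The block called no member elsewhere, including FL against EV. Leaving out 1 library at a time, and dividing the counts of the members on chromosome 6 by 6, called 0 members in every comparison. The division left 5 of the 9 genes tested, and HLA-B in SF-Nte against FL then had an edgeR adjusted p of 0.174. Only 20.0% of HLA-B counts were divisible by 6, so for HLA-B the division mainly lowered the counts and does not test the steps of 6.

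Among printed fold changes, 3 of the 4 uncalled B2M values against EV changed sign. They ran from -0.66 to 0.26 in FL, -0.48 to 0.43 in FL-mut and -0.47 to 0.62 in SF-mut when 1 library was left out. With the replicate block the log2 fold change of B2M in FL-mut was 0.032, and with no filter on low counts that in SF-mut was -0.046. Over all members, 69 of 540 values with a library left out changed sign. MICA in SF-mut against FL-mut lost its call with upper-quartile scaling (adjusted p = 0.0539) and only the groups compared (0.315), and VIM in SF-Nte against FL lost it without any 1 of the 6 libraries (0.0528 to 0.222). Upper-quartile scaling moved the median of all genes from 0.04 to -0.11 in FL-mut against EV and from 0.02 to -0.12 in FL-mut against FL.

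HLA-F and PSMB9 had counts above 0 in 10 and 13 libraries. The lower totals of the short-form groups limit the precision of low members there.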
